A study of Homo sapiens with 24 samples.

Results

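Loss of SFPQ was compared directly with loss of NONO in SBC-3 cells, an established human small cell lung cancer line. The comparison used the 12 libraries, of 24 in the series, that are labelled with an siRNA against one or the other gene: 6 treated with siSFPQ-2 or siSFPQ-3 and 6 treated with siNONO-3 or siNONO-4, with 3 libraries per siRNA. All of these cells are labelled wild type and were reverse transfected with siRNA at 10 nM, and poly(A) RNA was taken after 72 h. The 3 libraries of the control siRNA, siCtrl, were not in the main fit, and their levels are given only to place a gene. Like the remaining 9 libraries of the series, they entered a fit only in the alternative run over all 24 libraries. The labels do not state whether the 3 libraries of an siRNA came from separate cultures, so the p-values measure the spread between these libraries, which may be technical.

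SFPQ and NONO belong, with PSPC1, to a family of nuclear proteins that bind RNA and DNA and pair with one another. Together they form the core of paraspeckles, nuclear bodies built on the long noncoding RNA NEAT1, and they also take part in transcription, splicing, DNA repair and the processing of primary microRNA transcripts. Because the proteins act as dimers with each other, a direct comparison asks which genes differ between loss of one partner and loss of the other.

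Library totals ran from 4243196 to 9747514 reads assigned to genes in the siSFPQ libraries and from 9239632 to 10660126 in the siNONO libraries (exact permutation test, two-sided, p = 0.00649, and 0.0108 after Benjamini-Hochberg adjustment over 5 library measures). At a common depth of 4243196 reads, 20717 to 21380 genes would be detected in a siSFPQ library and 19862 to 20200 in a siNONO library (exact permutation p = 0.00216, the smallest that 6 against 6 allows). The first principal component held 78.75% of the variance. Of the markers fixed for small cell lung cancer, INSM1 and GRP had 0 reads over all siSFPQ and all siNONO libraries and CHGA had 3 in each group. SYP was at a mean of 50.7 CPM after siSFPQ and 10.3 CPM after siNONO, and NEUROD1 at 1.79 and 10.4 CPM. YAP1, the marker of a subtype that lacks neuroendocrine genes, was abundant, at a mean of 329 CPM after siSFPQ and 397 CPM after siNONO. Levels are in CPM, a gene's reads relative to all assigned reads of its library after TMM scaling. Differences are log2 of siSFPQ over siNONO, so that a positive value is higher after SFPQ knockdown, with the standard error (SE) and the adjusted p-value of edgeR's quasi-likelihood test.

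Each siRNA lowered its own target. SFPQ was at 152, 230 and 238 CPM (lowest, median and highest of 6 libraries) after siSFPQ and at 1419, 1547 and 1640 CPM after siNONO, against a mean of 1212 CPM in siCtrl. NONO was at 509, 569 and 612 CPM after siSFPQ and at 57.7, 70.2 and 75.1 CPM after siNONO, with a siCtrl mean of 396 CPM. The groups did not overlap for either gene, and in both groups the partner that was not targeted lay above siCtrl. The log2 difference was -2.85 for SFPQ (SE 0.10, edgeR adjusted p = 4.77e-13) and 3.05 for NONO (SE 0.07, edgeR adjusted p = 3.9e-17). The SFPQ gene lies at chr1:35176378-35193145 on the minus strand and NONO at chrX:71254814-71301522 on the plus strand of hg38, where NONO overlaps ZMYM3. The third family member, PSPC1, did not separate the groups, at 166, 207 and 216 CPM after siSFPQ and 194, 203 and 211 CPM after siNONO, with a difference of -0.02 and a 95% interval of -0.145 to 0.111. NEAT1, the paraspeckle RNA, was at 496, 635 and 818 CPM after siSFPQ against 262, 315 and 387 CPM after siNONO, with no overlap (log2 difference 1.00, SE 0.12, edgeR adjusted p = 5.65e-06). Of 33 tested paraspeckle components 9 were higher after siSFPQ and 18 after siNONO, where all tested genes gave 38.3% and 38.4%. The 33 include SFPQ and NONO, whose direction the siRNAs set. Without the 3 family members and NEAT1, 7 and 17 of 29 were called. The median of the 33 was -0.26 and -0.23 in the pairings of siSFPQ-2 with the NONO siRNAs. It was -0.06 and -0.08 in those of siSFPQ-3, and 7 members were higher with siSFPQ-3 than with siSFPQ-2. RBM7 had a difference of 0.52, ZC3H6 of -1.69 and CIRBP, a cold-inducible RNA-binding protein, of -0.74.

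**Figure D1:**
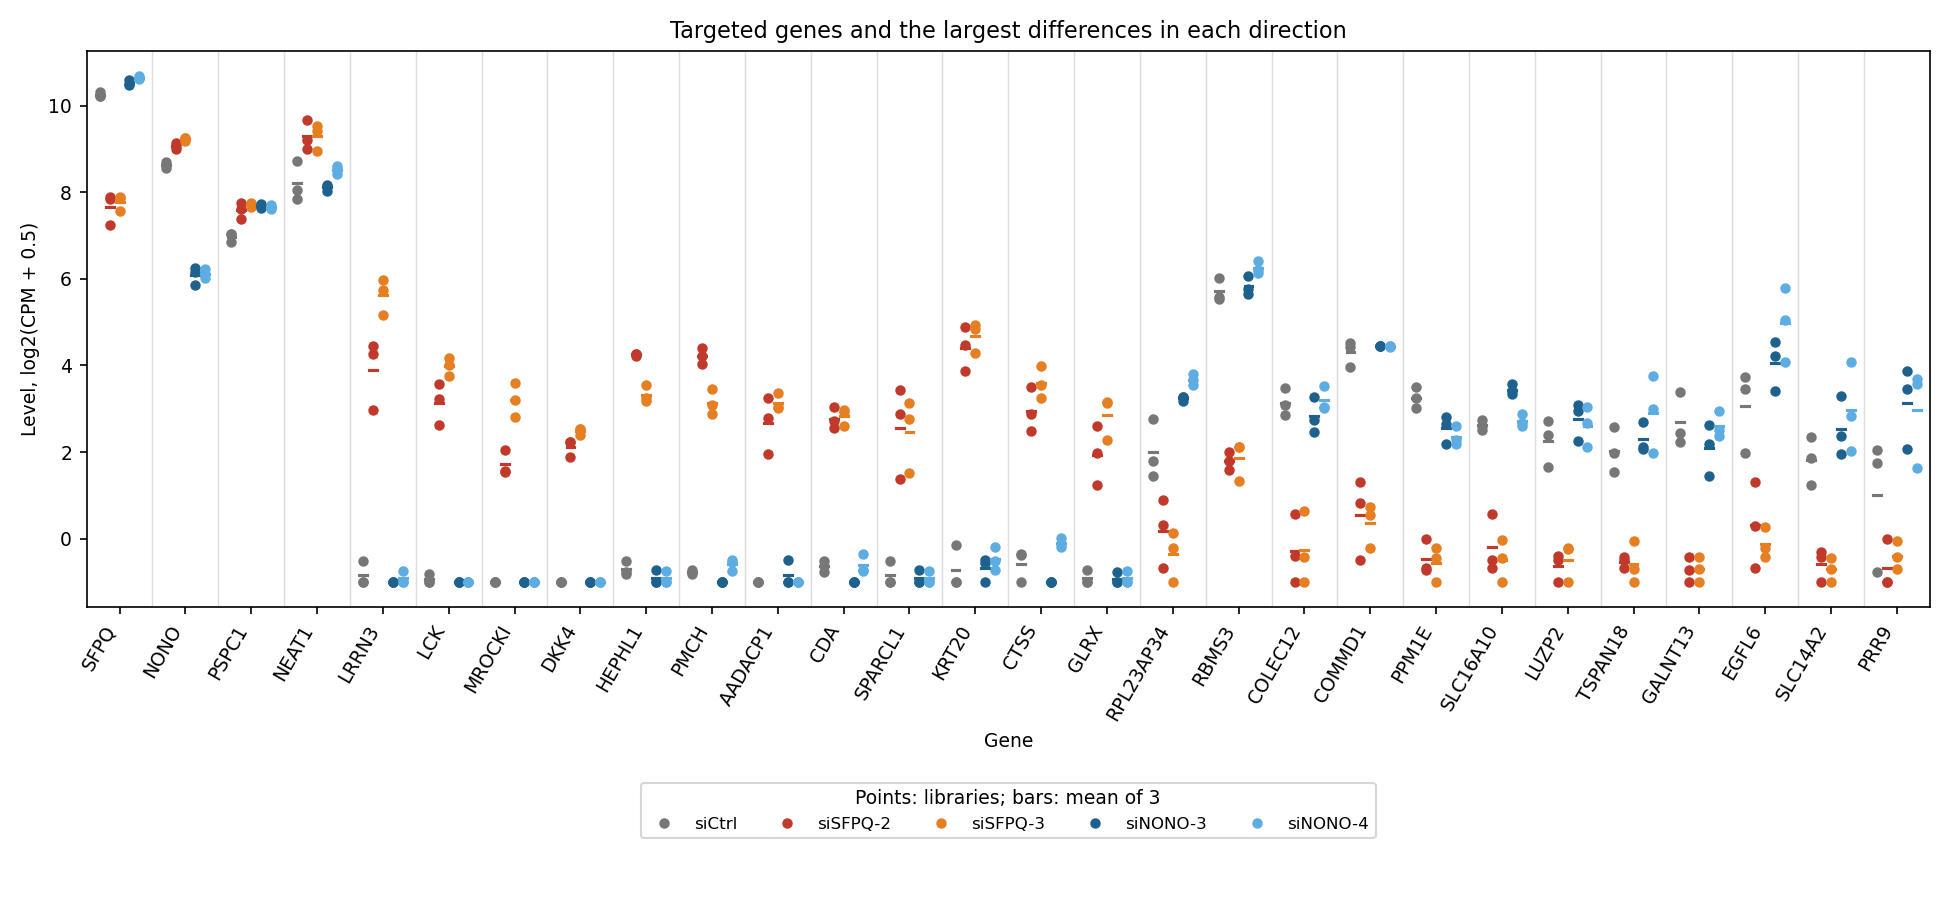
Levels of SFPQ, NONO, PSPC1, NEAT1 and the genes with the largest differences in each direction, as log2 (CPM + 0.5) on the axis, with one point per library and a bar at the mean of the 3 libraries of each siRNA; siCtrl is shown for placement. SFPQ and NONO are each low with their own siRNAs, PSPC1 overlaps, and the leading genes do not overlap between the siSFPQ and siNONO libraries.

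Most of the measured transcriptome separated the knockdowns. Of 15075 tested genes, 5776 were higher after siSFPQ (38.3%) and 5788 after siNONO (38.4%) at an edgeR adjusted p under 0.05, together 76.7%. Every count of list members below is to be read beside these shares. Differences of at least 2-fold were counted in 2815 genes higher after siSFPQ (18.7%) and 2158 higher after siNONO (14.3%). A stricter count, of genes called the same way in each of the 4 pairings of one siSFPQ siRNA with one siNONO siRNA, gave 3845 (25.5%) and 3577 (23.7%). By contrast, for 4193 genes (27.8%) the 95% interval of the difference lay within 1.5-fold in either direction. The 6 siSFPQ and 6 siNONO libraries did not overlap for 7605 genes (50.4%), so a gene without overlap was not unusual. The single pairings called 65.5 to 69.8% of genes: 67.9% for siSFPQ-2 with siNONO-3, 65.5% for siSFPQ-2 with siNONO-4, 69.8% for siSFPQ-3 with siNONO-3 and 67.5% for siSFPQ-3 with siNONO-4. The siRNAs against one target also differed: siSFPQ-2 from siSFPQ-3 in 2140 genes (14.2%) and siNONO-3 from siNONO-4 in 1365 (9.05%). The latter count was unstable: it was 2350 with the replicate number as a block, where same-numbered libraries of these siRNAs deviated together. It was 811 and 740 without siNONO-3 replicate 2 or 3, and 892 and 885 without siNONO-4 replicate 1 or 3.

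The siCtrl libraries lay nearer to siNONO than to siSFPQ for most of these genes. Among the 2815 genes that were at least 2-fold higher after siSFPQ, the siCtrl mean lay nearer to siNONO in 2676 (95.1%). Among the 2158 at least 2-fold higher after siNONO it lay nearer to siNONO in 1985 (92.0%). The siCtrl mean fell between the groups for 1663 and 1202 genes of these sets (59.1% and 55.7%). In the other large class both knockdowns lay on the same side of siCtrl: 1141 of the 2815 were above it in both, and 913 of the 2158 were below it in both.

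Genes at the upper extreme were close to silent both after NONO knockdown and in siCtrl, where LRRN3 had 2 reads, LCK 1, MROCKI and DKK4 0, KRT20 4, HEPHL1 4 and PMCH 3 over 3 libraries. LRRN3, a leucine-rich repeat membrane protein of neurons, was at 7.29, 28.2 and 61.8 CPM after siSFPQ and at 0 to 0.101 CPM after siNONO, or 1576 reads against 1 (depth-scaled ratio 2047, 95% interval 367 to 80913, counting error only). LCK, a tyrosine kinase best known from T cells, had 593 reads against 0, at least 257-fold more when 3 reads over the siNONO group are taken as the limit. The same bound was 125-fold for the noncoding RNA MROCKI and 93.1-fold for DKK4, a secreted Wnt inhibitor. KRT20, a keratin of gut epithelium, was at 14.1, 25 and 30 CPM after siSFPQ and at most 0.375 CPM after siNONO (1076 against 11 reads, ratio 127, 95% interval 70.7 to 255). HEPHL1, a copper-dependent ferroxidase, had 642 against 2 reads, and PMCH, the precursor of melanin-concentrating hormone, 598 against 5. None of these genes overlapped between groups, but they were chosen among genes called in every siRNA pairing. They had enough reads to be tested only through siSFPQ, so their direction was fixed. LRRN3 lies within IMMP2L and PMCH overlaps HELLPAR and PARPBP, and whether the counting used strand is not given in the sources used here, so reads of such neighbours may be shared.

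Among genes at the lower extreme, some were near the siCtrl level after NONO knockdown and others had a higher mean than siCtrl. COMMD1, which takes part in copper handling and endosomal sorting, was at 0.208, 1.07 and 1.97 CPM after siSFPQ and at 21, 21.3 and 21.4 CPM after siNONO, with a siCtrl mean of 19.5 CPM (log2 difference -4.56, SE 0.22, edgeR adjusted p = 1.92e-12). RBMS3, an RNA-binding protein gene of 1435.6 kb, was at 2.02, 3.25 and 3.87 CPM against 49.3, 68.1 and 84.1 CPM, and siCtrl was at 52.7 CPM (difference -4.39, SE 0.13, edgeR adjusted p = 2e-15). EGFL6, a secreted protein with EGF repeats, was at 0.126, 0.529 and 1.97 CPM against 10.1, 20.5 and 54.3 CPM. Its mean was 25.7 CPM after siNONO and 8.94 CPM in siCtrl. The groups were again apart for these 3 genes. PRR9 had 9 against 550 reads (ratio of siNONO over siSFPQ 47.0, 95% interval 24.6 to 103), with means of 9.10 CPM after siNONO and 2.20 CPM in siCtrl. GALNT13, a brain glycosyltransferase, was at most 0.246 CPM after siSFPQ and at 2.23 to 7.27 CPM after siNONO, with a siCtrl mean of 6.36 CPM. PRR9, GALNT13 (5 against 295 reads) and EGFL6 (27 against 1548) could be tested only through siNONO, so their direction was fixed.

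Genes of NF-kB signalling, the inflammatory pathway whose factors switch on cytokines and their own inhibitors, were largely higher after siSFPQ. Of 23 tested members of a list of 30, 19 were higher after siSFPQ and 2 after siNONO, with a median difference of 1.58 beside -0.01 over all tested genes, and 17 and 1 were called in every siRNA pairing. IL1A, an alarm cytokine, was at 7.81, 22.2 and 38.6 CPM after siSFPQ and at 0.212, 0.834 and 1.47 CPM after siNONO, a difference of 4.68. Its siSFPQ level depended on the siRNA, 2.07 log2 units lower with siSFPQ-2 than with siSFPQ-3 in a separate test (-2.07, edgeR adjusted p = 6.9e-08). IL1B was at 3.85, 6.81 and 10.7 CPM against 0.0937, 0.201 and 0.367 CPM. The chemokine gene CCL20 had 84 against 3 reads (ratio 36.4, 95% interval 12 to 180). These cytokines were separated without overlap, as were 50.4% of all tested genes in either direction. IL1B, with 324 against 13 reads, and CCL20 had enough reads to be tested only through siSFPQ, so their direction was fixed. TNFAIP2 ran the other way, at 26.4, 31.9 and 35.1 CPM after siSFPQ and 56.1, 70.0 and 82.8 CPM after siNONO, as did IER3 at -1.31.

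TNFAIP3, which encodes the inhibitor A20, was at 34.3, 37.0 and 41.8 CPM after siSFPQ and 3.39, 3.89 and 7.41 CPM after siNONO, a difference of 3.11 with no overlap. Its promoter is shown because the NF-kB consensus (GGGA and TTTCC with any base between them), searched on both strands, occurs in it. In windows of 300 bases around the RefSeq start (250 before, 50 after), 61 of 10712 tested genes with such a window held them (0.569%), and 9 of 19 list members did (47.4%). Members with the match had a median difference of 1.51 and those without 2.25, so the letters did not mark the members that separated most. A match is a description of the sequence, not a binding site. The bases upstream of the start at chr6:137867009-137867213, plus strand of GRCh38.p14 from RefSeq, are given with the match, on the minus strand and 67 bases before the start, in capitals. The gene was picked as the member with the match and the largest difference.
TNFAIP3 promoter: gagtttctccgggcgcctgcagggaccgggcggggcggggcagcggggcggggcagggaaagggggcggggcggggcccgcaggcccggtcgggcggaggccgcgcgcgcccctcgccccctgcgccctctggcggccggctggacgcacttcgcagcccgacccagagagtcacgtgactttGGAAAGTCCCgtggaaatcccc

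Interferon-stimulated genes, the antiviral genes switched on by interferon, split. Of 27 tested members of 37, 17 were higher after siSFPQ and 8 after siNONO, with a median of 0.76. With siNONO-4 alone the median was 0.36, and 7 members were higher with siNONO-4 than with siNONO-3. The 8 tested signalling members, which include STAT and IRF factors, had 6 higher after siSFPQ and 0 after siNONO, whereas the 19 effectors divided into 11 and 8. HERC6, ISG20 and IFI27 had differences of 3.20, 3.19 and 2.82. IFIT1, which binds foreign RNA ends, was at 58.7, 76.8 and 96.9 CPM after siSFPQ and 567, 651 and 707 CPM after siNONO, where siCtrl was at 641 CPM, for a difference of -3.09. IFIT1 is nested in LIPA in the annotation. IFIT5 at -0.97 and TRIM22 at -1.0 were also lower after siSFPQ. Among 10 cytosolic sensors of RNA and DNA, 4 were higher after siSFPQ and 1 after siNONO, with STING1, the adaptor of DNA sensing, at 2.35 and MAVS, the adaptor of RNA sensing, at -0.48.

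Immediate early genes and CREB targets, which respond within minutes to growth factor or cAMP signals, were more often higher after siSFPQ: 18 of 29 tested against 5, with a median of 1.01. DUSP6, a phosphatase that switches off ERK, was at 205, 345 and 445 CPM after siSFPQ and at 4.68, 7.33 and 8.78 CPM after siNONO (difference 5.56, edgeR adjusted p = 4.1e-14). NR4A2, an orphan nuclear receptor, had a difference of 3.07 and DUSP5 of 2.71. EGR1, an early growth-response factor, was lower after siSFPQ at -1.12, and CRTC1, a CREB coactivator, at -1.30. Circadian genes, known for a link to NONO through the PER proteins, gave 15 higher after siSFPQ and 1 lower of 21 tested, with a median of 0.53. BHLHE40, a clock repressor, was at 23.7, 27.1 and 35.7 CPM after siSFPQ and 4.07, 4.87 and 6.40 CPM after siNONO. PER2 had a difference of 1.25 and NFIL3 of 1.14, and NR1D1, which overlaps THRA, was the member lower after siSFPQ at -0.93. The E-box letters CACGTG were in 5 of 18 circadian promoters (27.8%) and in 10.1% of all.

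Genes of cholesterol metabolism, which sterol-sensing factors of the SREBP family raise when sterols are scarce, were higher after siSFPQ in 19 of 26 and lower in 4, with a median of 0.99. HMGCS1, an early enzyme of the pathway, was at 202, 312 and 385 CPM after siSFPQ and 67.2, 79.2 and 90.5 CPM after siNONO, with no overlap (difference 1.94). PMVK, a mevalonate pathway kinase, was lower after siSFPQ at -1.53, and SCAP, the sterol sensor that escorts SREBP, at -0.50.

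Genes of the matrix and its receptors were mostly higher after siSFPQ, 27 of 38 tested (of 47 listed) against 6, with a median of 1.42. All 12 tested integrins were higher after siSFPQ, with a median of 1.81. ITGA2, a collagen receptor subunit, was at 226, 301 and 358 CPM after siSFPQ and at 4.85, 6.41 and 10.3 CPM after siNONO, with a siCtrl mean of 15.3 CPM (difference 5.46, edgeR adjusted p = 1.2e-14). Laminins and other matrix glycoproteins had 9 of 13 higher after siSFPQ and 0 lower, led by FBN2, a fibrillin, at 4.97. Collagens divided evenly, with 6 of 13 higher in each direction and a median of -0.09: COL3A1 had a difference of 4.83, COL5A2 of -3.67, COL1A2 of -3.06 and COL18A1 of -1.86. FBN2 and COL3A1 could be tested only through siSFPQ and COL5A2 only through siNONO, so their directions were fixed. Of 32 keratins and epithelial junction genes 15 had enough reads to test. Of these, 12 were higher after siSFPQ and 2 lower, with a median of 2.04. CLDN4, a tight junction claudin, was at 3.59 and KRT18 at 3.37. KRT20 (1076 against 11 reads) and KRT18 (99 against 11) could be tested only through siSFPQ, so their direction was fixed. KRT18 overlaps KRT8. CLDN7 was lower at -0.57 and NECTIN4 at -1.53.

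Mesenchymal genes and YAP targets were also mostly higher after siSFPQ, 20 of 28 against 4, with a median of 1.03. ANXA1, a calcium-dependent lipid-binding protein, was at 123, 186 and 242 CPM after siSFPQ and 4.45, 10.4 and 16 CPM after siNONO. CAV1, the caveolar coat protein, had a difference of 3.34. VIM, the intermediate filament of mesenchymal cells, was at 126, 167 and 205 CPM against 28.7, 41.4 and 54.0 CPM, and was singled out after its values were seen. VIM overlaps VIM-AS1. SNAI2, a transcription factor of the mesenchymal state, went the other way at 35.7, 48.4 and 71.2 CPM after siSFPQ and 176, 233 and 283 CPM after siNONO, and TGFB2 had a difference of -1.14. Of 14 listed keratins 5 were tested and 4 were higher after siSFPQ, among them KRT20 and KRT18, whose direction was fixed.

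**Figure D2:**
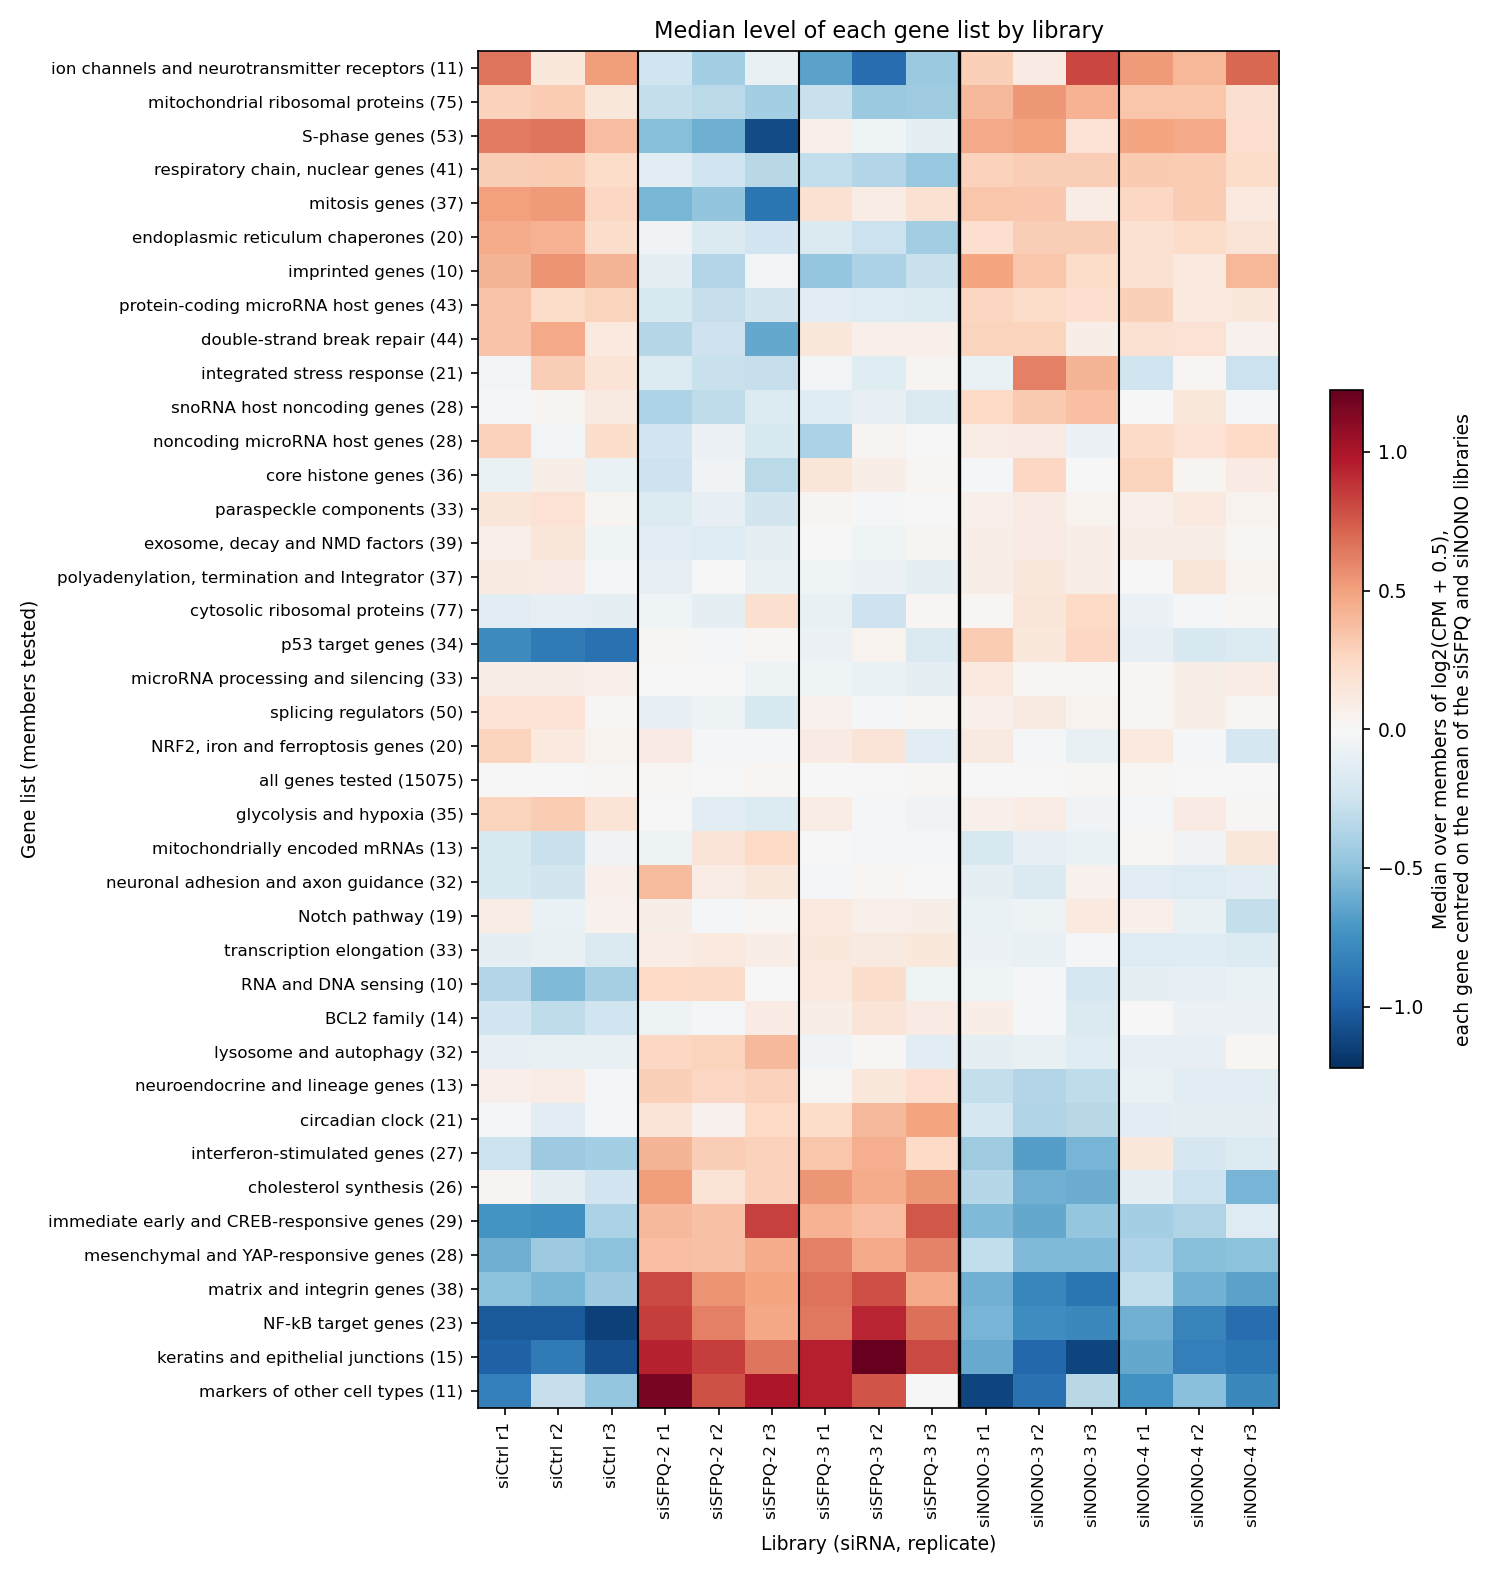
Each gene list with 10 or more tested members (vertical axis) in each library (horizontal axis), coloured by the median over members of log2 (CPM + 0.5) after centring each gene on its mean over the 12 knockdown libraries. The NF-kB, matrix and integrin, and keratin lists are high in all 6 siSFPQ libraries, the mitochondrial ribosomal and nuclear respiratory chain lists are high in all 6 siNONO libraries, and the S-phase and mitosis lists are lowest in the 3 siSFPQ-2 libraries.

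Mitochondrial genes encoded in the nucleus were mostly lower after siSFPQ. Of 75 tested genes for mitochondrial ribosomal proteins, which translate the mitochondrial genome, 66 were higher after siNONO and 2 after siSFPQ, with a median of -0.75, and 54 were called in every siRNA pairing. MRPL16, MRPL55 and MRPS34 had differences of -1.57, -1.79 and -1.81, of which MRPS34 overlaps EME2, while MRPL10 and MRPS30 were higher after siSFPQ at 0.49 and 0.20. Of 41 nuclear genes of the respiratory chain, 38 were higher after siNONO and 1 after siSFPQ, with a median of -0.63. CYC1, the cytochrome c1 subunit of complex III, was at 13.4, 17 and 20.1 CPM after siSFPQ and at 54.0, 60.2 and 65.1 CPM after siNONO, with no overlap (difference -1.82, edgeR adjusted p = 3.6e-13). NDUFA10 of complex I had a difference of -1.61 and ATP5MC1 of ATP synthase of -1.59, and NDUFV2 of complex I was the member higher after siSFPQ, at 1.45.

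The 13 protein genes of the mitochondrial genome itself did not follow. Of these, 5 were higher after siSFPQ and 2 after siNONO, with a median of 0.09: MT-CO1, MT-CYB and MT-ND4 had differences of 0.35, 0.37 and 0.37, and MT-ND6 of -0.86. All genes of the mitochondrial genome together took a share of assigned reads of 9.59 to 11.6% after siSFPQ and 7.97 to 10.3% after siNONO (exact permutation test, two-sided, p = 0.013). With these genes left out of the scaling, the mitochondrial ribosomal and respiratory medians were -0.76 and -0.63. Cytosolic ribosomal proteins, which translate the other messages, moved less, with 31 of 77 higher after siNONO, 12 after siSFPQ and a median of -0.10. Transcript length moved with the difference over all protein-coding genes: the median was -0.53 for 387 genes with at most 1500 exonic bases and 0.06 for 5303 genes with over 6000. The part of length in the mitochondrial result was not tested.

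Genes of DNA synthesis were lower after siSFPQ in nearly every case. Of 53 tested S-phase genes, 48 were higher after siNONO and 1 after siSFPQ, with a median of -0.74, and 24 were called in every siRNA pairing. All 11 helicase and fork genes were in the first class, with a median of -0.92, as were 28 of 30 synthesis genes and 9 of 12 licensing genes. GINS4, a subunit of the replicative helicase, was at 21.8, 33 and 52.0 CPM after siSFPQ and at 185, 220 and 273 CPM after siNONO (difference -2.71, edgeR adjusted p = 1.06e-07). GINS1, of the same complex, was at 7.91, 19.9 and 26.9 CPM against 57.4, 81.9 and 96.7 CPM, and PRIM2 of the primase had a difference of -1.81. MCM2, a licensing helicase, was the exception at 0.18 (edgeR adjusted p = 0.0367), where the groups overlapped at 44.3 to 93.9 CPM and 50.5 to 61.5 CPM. With the siSFPQ-2 libraries alone the MCM2 difference was -0.26.

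The size of this difference depended on the SFPQ siRNA. With siSFPQ-2 alone the S-phase median was -1.11 and with siSFPQ-3 alone -0.39, and in the direct test 36 of the 53 genes were higher with siSFPQ-3 and 0 with siSFPQ-2, against 8.13% and 6.07% of all tested genes. SFPQ itself differed by -0.09 between the same siRNAs (siSFPQ-2 over siSFPQ-3, edgeR adjusted p = 0.70). The siNONO siRNAs differed in 1 of the 53. The mitosis list followed the same division. Over all libraries 26 of 37 tested mitosis genes were higher after siNONO and 5 after siSFPQ, with a median of -0.47. With siSFPQ-2 alone the mitosis median was -0.99 and with siSFPQ-3 alone -0.10, and 34 members were higher with siSFPQ-3 than with siSFPQ-2. The mitotic cyclin CCNA2, which overlaps EXOSC9, had a difference of -1.21, the checkpoint kinase BUB1 of -1.06 and the kinetochore gene SPC25 of -1.63. WEE1, the kinase that holds cells before mitosis, was higher after siSFPQ at 115, 216 and 310 CPM against 95, 106 and 122 CPM, with overlapping groups and a difference of 0.85. In bulk RNA, fewer cells in S phase or mitosis and less of these messages per cell cannot be told apart.

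**Figure D3:**
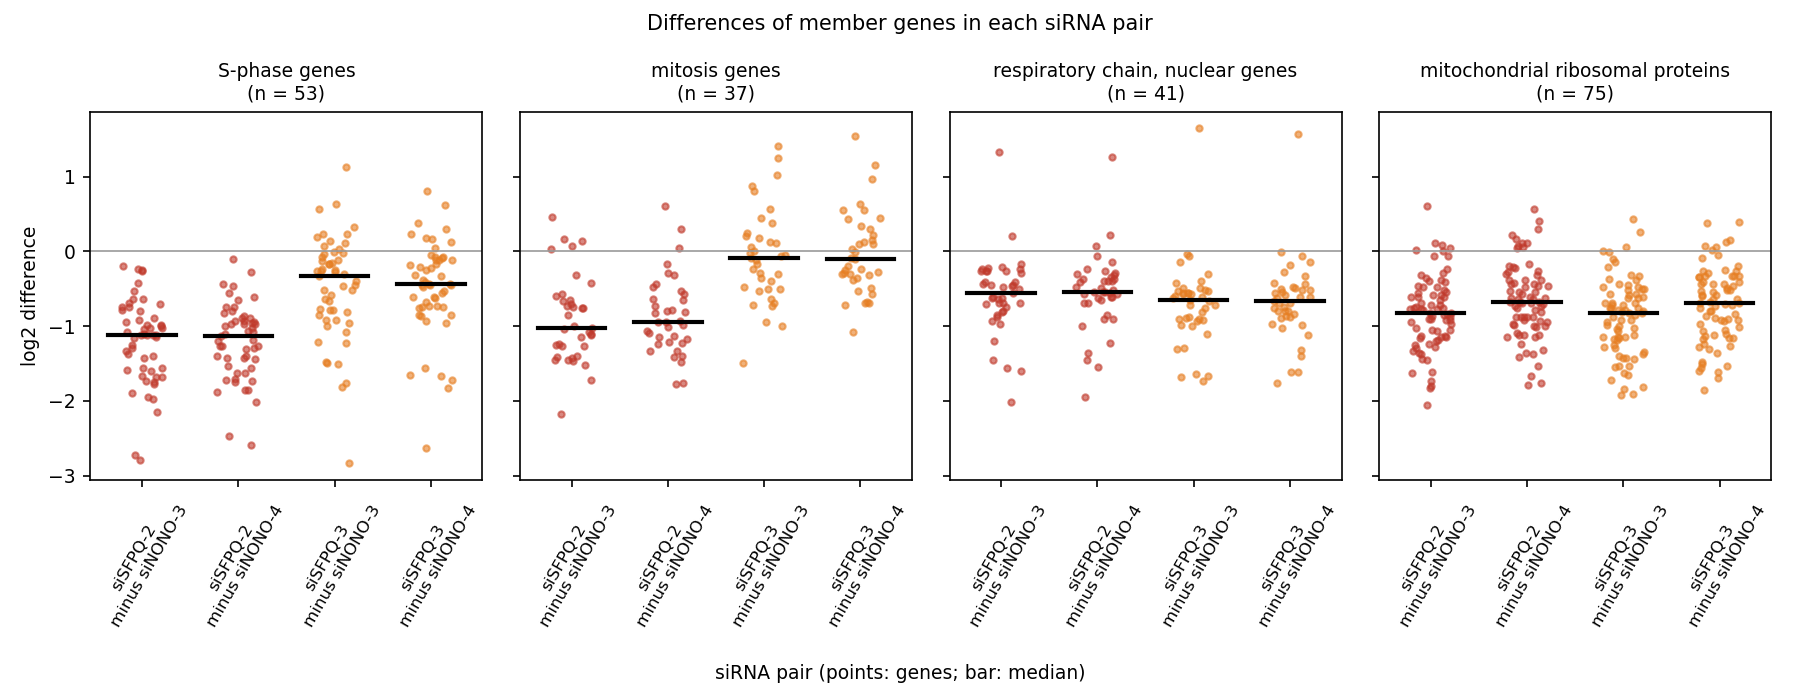
Log2 difference of siSFPQ over siNONO (vertical axis) for each member of 4 lists, S-phase, mitosis, nuclear respiratory chain and mitochondrial ribosomal genes, in the 4 pairings of one siSFPQ siRNA with one siNONO siRNA. Pair medians are -1.12 and -1.14 with siSFPQ-2 and -0.33 and -0.44 with siSFPQ-3 for the S-phase genes, while the mitochondrial lists lie below 0 with either siRNA.

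TYMS, which makes thymidylate for DNA, was at 39.7, 86.9 and 120 CPM after siSFPQ and 169, 222 and 241 CPM after siNONO, with no overlap (difference -1.33, edgeR adjusted p = 3.56e-05). TYMS overlaps ENOSF1 and TYMSOS. Its promoter is shown for the letters TTTCCCGC of the E2F family, the factors of the G1 to S transition, searched on both strands. They were in 11 of 46 S-phase promoters (23.9%), in 1 of 31 mitosis promoters (3.23%) and in 283 of all 10712 (2.64%). S-phase genes with the letters had a median of -0.54 and those without -0.83. The sequence covers chr18:657403-657652 on the plus strand, from RefSeq on GRCh38.p14, with the match in capitals, on the minus strand and 39 bases before the start. The gene was picked, after values were seen, as the member with the match and the largest difference.
TYMS promoter: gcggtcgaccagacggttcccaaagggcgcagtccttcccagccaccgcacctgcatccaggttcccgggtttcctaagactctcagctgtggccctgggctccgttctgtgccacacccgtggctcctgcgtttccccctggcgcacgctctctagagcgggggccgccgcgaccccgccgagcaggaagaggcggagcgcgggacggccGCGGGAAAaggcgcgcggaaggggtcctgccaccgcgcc

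Double-strand break repair divided by pathway. Homologous recombination genes, which copy from the sister chromatid, were higher after siNONO in 17 of 22 and after siSFPQ in 2, with a median of -0.51. Interstrand crosslink genes had 8 of 10 higher after siNONO and 1 after siSFPQ. End-joining genes had 6 of 12 higher after siSFPQ and 3 after siNONO, with a median of 0.22, where all tested genes gave 38.3% and 38.4%. RAD51B and RAD54L, both of recombination, had differences of -2.88 and -1.96, and XRCC3, which overlaps KLC1, of -2.34. RBBP8, which starts end resection, was higher after siSFPQ at 0.97, and LIG4, the end-joining ligase, at 0.85. Over the 44 tested repair genes the median was -0.72 and -0.62 in the siSFPQ-2 pairings and -0.20 and -0.12 in those of siSFPQ-3, and 20 were higher with siSFPQ-3 than with siSFPQ-2 and 2 lower.

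For targets of p53 the comparison depended on the NONO siRNA. Over all libraries 13 of 34 were higher after siSFPQ and 14 after siNONO, near the 38.3% and 38.4% of all tested genes. The list median was -0.10. By pairing it was -0.22 and -0.30 for siSFPQ-2 and siSFPQ-3 against siNONO-3, and 0.20 and 0.16 against siNONO-4. In the direct test 17 of the 34 were higher with siNONO-3 than with siNONO-4 and 2 lower, against 3.97% and 5.09% of all tested genes. The median centred level of the list ran from -0.18 to 0.04 in siSFPQ libraries, from 0.13 to 0.31 with siNONO-3, from -0.18 to -0.10 with siNONO-4 and from -0.91 to -0.78 in siCtrl, the lowest of the groups. CDKN1A, the cell cycle inhibitor p21, named after its values were seen, was at 38.5, 47.8 and 59.8 CPM after siSFPQ and 42.3, 52.4 and 58.5 CPM after siNONO (difference -0.14, edgeR adjusted p = 0.151), with siCtrl at 14.7 CPM. Single members differed strongly. PMAIP1, the BH3-only killer NOXA, was at 75, 87.7 and 109 CPM after siSFPQ and 7.07, 9.94 and 14.6 CPM after siNONO, and GADD45A had a difference of 1.72. PIDD1, EDA2R and TRIAP1 were lower after siSFPQ, at -1.72, -1.56 and -1.33.

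The BCL2 family split, with 7 of 14 tested members higher after siSFPQ and 5 after siNONO, beside 38.3% and 38.4% of all tested genes. The survival members divided 2 and 2 of 4, and the effectors and BH3-only members 5 and 3 of 10. BMF, a BH3-only member, was at 92.1, 102 and 112 CPM after siSFPQ and 5.84, 8.31 and 11.8 CPM after siNONO, and HRK, another, had a difference of 3.08. The pore-forming members BAX and BAK1 were lower after siSFPQ at -1.07 and -1.08. Chaperones and folding enzymes of the endoplasmic reticulum were lower after siSFPQ in 12 of 20 and higher in 5, with SDF2L1 at -2.39, PDIA4 at -1.40 and EDEM1, which clears misfolded glycoproteins, at 2.16. Genes of the integrated stress response, driven by ATF4, were lower after siSFPQ in 11 of 21 and higher in 6, of which 4 and 2 were called in every siRNA pairing. Their median was -0.65 and -0.36 for siSFPQ-2 and siSFPQ-3 against siNONO-3 and -0.08 and 0.12 against siNONO-4, so that its direction depended on the siRNA. Among them SLC7A11, the cystine importer, was at 287, 324 and 462 CPM after siSFPQ and 9.28, 13.4 and 53.8 CPM after siNONO, and PSAT1, of serine synthesis, had a difference of -2.13.

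Sugar metabolism split between glycolysis and the other hypoxia targets. Glycolysis genes were lower after siSFPQ in 13 of 21 and higher in 6, with a median of -0.59, and hypoxia targets outside glycolysis were higher in 9 of 14 and lower in 4, with a median of 0.75. HK2, which traps glucose, was at 16, 20.5 and 29.8 CPM after siSFPQ and 74.1, 90 and 114 CPM after siNONO, and TPI1, which overlaps SPSB2, had a difference of -1.52. The glucose transporter SLC2A3 was at 19.6, 33 and 41.5 CPM after siSFPQ and at most 0.469 CPM after siNONO, a difference of 6.40. CA12 and EGLN3, a carbonic anhydrase and an oxygen-sensing hydroxylase, had differences of 2.99 and 2.27. Autophagy genes had 6 of 11 higher after siSFPQ and 3 lower, with the cargo receptor SQSTM1 at 1.90. The median centred level of the wider lysosome and autophagy list depended on the SFPQ siRNA. It was 0.25 to 0.39 with siSFPQ-2, -0.13 to 0.01 with siSFPQ-3 and -0.15 to 0.03 in siNONO libraries. The NRF2 list did not lean, with 7 of 20 higher, 6 lower and a median of -0.01.

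Host genes of microRNAs were examined because both proteins bind primary microRNA transcripts. The mature sequences of some of the hosts, not ranked by size of difference, are shown, from RefSeq on GRCh38.p14. The seed (bases 2 to 8), which pairs with target messages, is in capitals. Mature microRNAs were not analysed here, and a host transcript is not a measure of them. The let-7 family shares one seed and comes from several hosts.
hsa-let-7a-5p: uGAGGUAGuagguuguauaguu
hsa-let-7b-5p: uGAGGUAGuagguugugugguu
hsa-let-7i-5p: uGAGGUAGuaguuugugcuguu
The MIR17HG transcript carries 4 seeds, that of miR-17 being shared with miR-20a and that of miR-19a with miR-19b.
hsa-miR-17-5p: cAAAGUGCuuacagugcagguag
hsa-miR-18a-5p: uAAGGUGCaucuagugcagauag
hsa-miR-19a-3p: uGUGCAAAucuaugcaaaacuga
hsa-miR-20a-5p: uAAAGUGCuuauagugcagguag
hsa-miR-19b-3p: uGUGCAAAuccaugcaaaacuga
hsa-miR-92a-3p: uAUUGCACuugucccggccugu
MIR497HG and DLEU2 give microRNAs with one seed from different chromosomes.
hsa-miR-497-5p: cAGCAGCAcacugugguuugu
hsa-miR-195-5p: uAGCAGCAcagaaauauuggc
hsa-miR-15a-5p: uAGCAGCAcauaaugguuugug
hsa-miR-16-5p: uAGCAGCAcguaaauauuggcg
MIR23AHG and AOPEP likewise give pairs with the same seeds, and VMP1 holds miR-21.
hsa-miR-23a-3p: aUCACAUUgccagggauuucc
hsa-miR-23b-3p: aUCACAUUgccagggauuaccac
hsa-miR-27a-3p: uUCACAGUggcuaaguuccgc
hsa-miR-27b-3p: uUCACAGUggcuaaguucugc
hsa-miR-21-5p: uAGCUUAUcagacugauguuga

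Hosts with the same let-7 seed went in opposite directions. MIRLET7IHG (chr12:62602752-62622213, plus strand, hg38), the host of let-7i, was at 43.7, 51.7 and 56.2 CPM after siSFPQ and 6.78, 8.86 and 11.9 CPM after siNONO (difference 2.5, edgeR adjusted p = 3.49e-14). MIRLET7BHG (chr22:46053869-46113928, plus strand), which holds let-7b and a let-7a hairpin and overlaps PRR34 and PRR34-AS1, was at 2.5, 2.95 and 3.66 CPM against 7.61, 8.68 and 9.74 CPM (difference -1.54, edgeR adjusted p = 8.33e-09). Both pairs of groups were apart. MIRLET7A1HG overlapped between groups, at 11.1, 15.5 and 19.6 CPM and 13.8, 16.7 and 18.5 CPM, with a difference of -0.07 and a 95% interval of -0.289 to 0.158. LIN28B, the protein that blocks let-7 maturation, was at 114, 128 and 157 CPM after siSFPQ and 337, 375 and 414 CPM after siNONO, close to siCtrl at 418 CPM in the latter (difference -1.50, edgeR adjusted p = 1.38e-12). LIN28B overlaps LIN28B-AS1. The uridylyl transferases that act with LIN28 went the other way: TUT4 was at 514, 542 and 602 CPM against 229, 273 and 303 CPM, and TUT7 at 90.1, 105 and 117 CPM against 34.7, 37.2 and 44.1 CPM. DIS3L2, the nuclease that degrades the uridylated precursor, had a difference of -1.20.

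MIR17HG (chr13:91347820-91354579, plus strand), the host of the cluster of miR-17 to miR-92a known from lung cancer, was at 18.6, 24.5 and 32.8 CPM after siSFPQ and 67.5, 89.2 and 102 CPM after siNONO, with siCtrl at 93.0 CPM (difference -1.83, SE 0.10, edgeR adjusted p = 4.96e-12). MIR497HG (chr17:7015818-7019659, minus strand) was at 0.468, 0.84 and 1.48 CPM against 3.97, 5.42 and 6.88 CPM (difference -2.70). DLEU2, whose hairpins share that seed and which overlaps TRIM13, differed by -0.58, and by -0.75 between siSFPQ-2 and siSFPQ-3 (edgeR adjusted p = 0.0057). H19, the imprinted host of miR-675, was at 0.936, 2.01 and 4.92 CPM after siSFPQ and 15.6, 20.8 and 24.9 CPM after siNONO, and its neighbour IGF2 had a difference of -2.71.

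Both hosts of the paired miR-23 and miR-27 seeds were higher after siSFPQ. MIR23AHG, which overlaps ZSWIM4, was at 3.20, 6.05 and 9.06 CPM against 0.834, 1.39 and 2.91 CPM (difference 1.84). AOPEP, an aminopeptidase gene, was at 19.5, 25.2 and 30 CPM against 8.78, 10.1 and 13.5 CPM (difference 1.24). VMP1, an autophagy membrane protein gene that overlaps PTRH2, was at 263, 309 and 413 CPM against 78.9, 95.4 and 119 CPM (difference 1.74). None of the 3 overlapped between groups. MIR181A1HG had 131 against 3 reads (ratio 56.7, 95% interval 19 to 279).

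The listed hosts were called lower after siSFPQ more often than higher, and hosts found by position leaned the same way but less. Of 28 tested noncoding hosts of 52, 13 were higher after siNONO (38.4% of all genes) and 7 after siSFPQ (38.3% of all genes), with a median of -0.32, and of 43 tested protein-coding hosts 25 and 13, with a median of -0.42. Over all 704 tested genes that contain a hairpin on their strand, 305 were higher after siNONO and 266 after siSFPQ, with a median of -0.08 beside -0.01 for 14371 genes without one, shares near those of all genes. The 79 of these that do not code for protein had 24 higher after siNONO and 33 after siSFPQ, with a median of 0.04. By gene span, the 459 hosts of up to 100 kb had 183 and 176 called and a median of -0.01. The 245 longer hosts had 122 and 90 called and a median of -0.21, where 2433 genes of that size without a hairpin were at -0.04. Nuclear factors of microRNA processing, such as the Microprocessor, had 5 of 7 higher after siNONO and 1 after siSFPQ. AGO2, the slicing Argonaute, was at 174, 180 and 207 CPM after siSFPQ and 377, 421 and 488 CPM after siNONO.

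**Figure D4:**
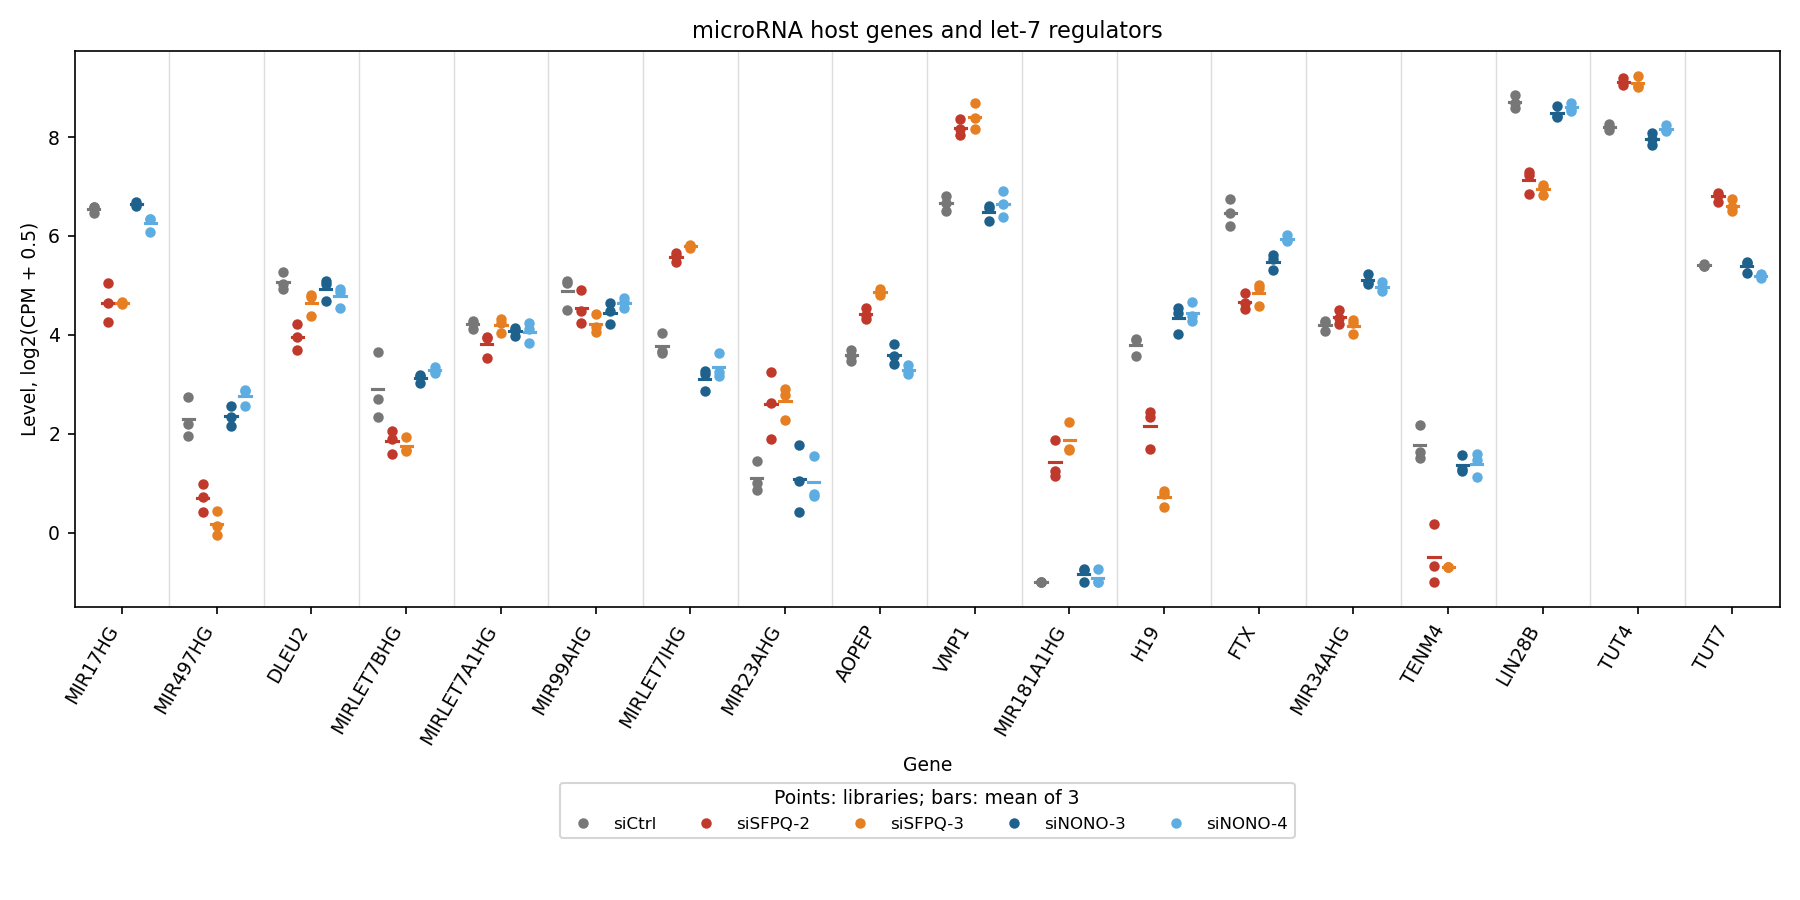
Levels of microRNA host genes and let-7 pathway genes as log2 (CPM + 0.5) on the axis, one point per library and a bar at the mean of the 3 libraries of each siRNA, siCtrl included for placement. MIRLET7IHG is high and MIRLET7BHG low in the siSFPQ libraries although both give let-7 with the same seed, and MIR17HG in siNONO lies near siCtrl.

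Genes of great length were more often lower than higher after siSFPQ. Of 507 tested genes spanning over 300 kb, 296 were higher after siNONO and 137 after siSFPQ (median -0.68), and 232 and 103 differed at least 2-fold. The median was 0.02 for 2171 genes of 100 to 300 kb, 0.11 for 4615 of 30 to 100 kb and -0.07 for 7782 of at most 30 kb. In single libraries, the median centred level of genes over 300 kb less that of all shorter genes was -0.44 to -0.21 after siSFPQ, 0.24 to 0.42 after siNONO and 0.50 to 0.53 in siCtrl, so the siNONO libraries lay between. LPP, a focal adhesion gene, was at 26.7, 31.3 and 43.9 CPM after siSFPQ and 278, 314 and 390 CPM after siNONO, and TENM4 and DNM3 had differences of -3.35 and -3.29. Length did not fix the direction. ANO3, of 474.4 kb, was at 104, 136 and 160 CPM after siSFPQ and 0.733, 2.14 and 5.16 CPM after siNONO, and DCLK1, of 362.7 kb, at 17.1, 33 and 48.3 CPM against 0.101, 0.304 and 0.469 CPM.

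**Figure D5:**
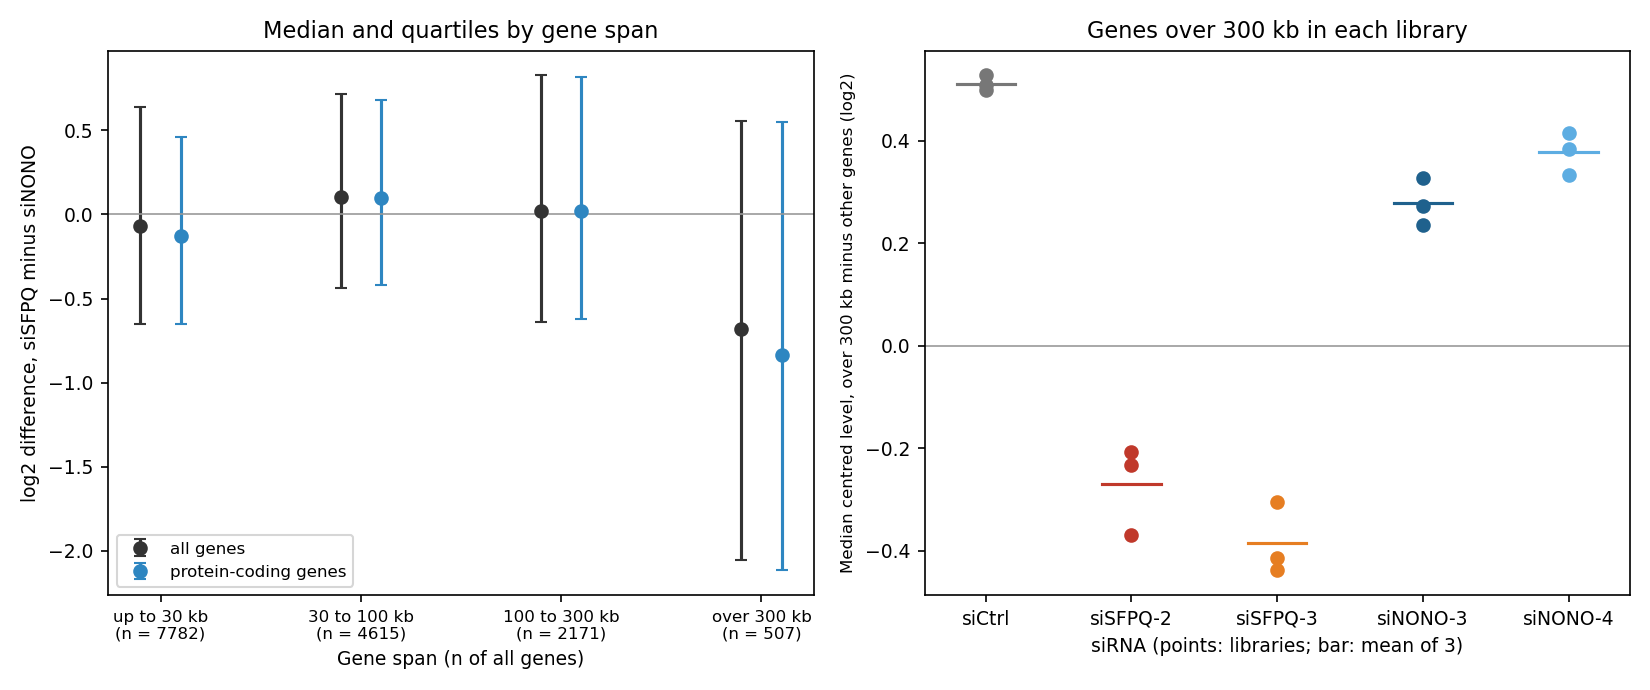
Left, median log2 difference of siSFPQ over siNONO with quartiles by genomic span in kb, for all tested and for protein-coding genes; right, for each library, the median centred level of the genes longer than 300 kb less that of all shorter ones. Only the longest class has a median far from 0, and siSFPQ, siNONO and siCtrl libraries lie at separate levels.

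Neuronal genes, many of which are long, did not act as one list. Genes of neuronal adhesion and axon guidance divided into 14 of 32 higher after siSFPQ and 12 after siNONO, beside 38.3% and 38.4% of all tested genes. Single members lay far apart, EPHA5 at 5.28 and SEMA3A at 5.10 against NLGN1 at -5.44, NEGR1 at -4.45 and NTM at -3.91. EPHA5 had 238 reads after siSFPQ against 8 after siNONO, NLGN1 1 against 76, NEGR1 6 against 152 and NTM 14 against 292. These genes could be tested only through the group where they were high, so their direction was fixed. Ion channels and receptors had 11 of 54 genes expressed enough to test, 2 higher and 6 lower after siSFPQ (median -1.41), among them GRIK2 at 3.53 and GRID1 at -2.97. The direction of GRIK2 (202 against 21 reads) and GRID1 (16 against 173) was fixed in the same way. Neuroendocrine genes had 7 of 13 higher and 4 lower: PROX1, a homeobox factor, was at 50.3, 58.1 and 71.6 CPM after siSFPQ and 0.73, 2.47 and 3.00 CPM after siNONO, and SYP, synaptophysin, at 33.7, 50.2 and 71.0 CPM against 7.75, 10.2 and 13.5 CPM. NEUROD1, a neuroendocrine transcription factor, went the other way at 0.605, 1.94 and 2.90 CPM against 7.87, 8.77 and 16.2 CPM. MYC was at 25.1, 28.7 and 44.9 CPM after siSFPQ and 78.0, 86.6 and 103 CPM after siNONO, near siCtrl at 82.0 CPM. In the Notch pathway 8 of 19 genes were higher and 6 lower, beside 38.3% and 38.4% of all tested genes. The target HEY1 was at 1.90 and the inhibitory ligand DLL3 at -2.18. DLL3 (17 against 102 reads) could be tested only through siNONO, so its direction was fixed.

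RNA-handling machinery showed smaller differences. Splicing factors had 14 of 50 higher after siSFPQ and 23 after siNONO, with a median of -0.09, and MBNL2 and RBFOX2 at 2.00 and 1.57 against CELF2 and QKI at -1.45 and -1.18. Polyadenylation genes had 8 of 37 and 18, with a median of -0.12, and the RNA exosome list 11 of 39 and 19, with a median of -0.13. Elongation factors leaned the other way, 18 of 33 and 9, with the super elongation complex scaffolds AFF1 at 1.63 and AFF4 at 1.08. Host genes of snoRNAs had 15 of 28 higher after siNONO and 6 after siSFPQ. Their median centred level depended on the NONO siRNA. It was 0.24 to 0.37 with siNONO-3, -0.03 to 0.14 with siNONO-4 and -0.37 to -0.10 in siSFPQ libraries. Histone genes, whose main transcripts lack poly(A) tails and are poorly captured by this selection, had 15 of 36 higher after siNONO and 8 after siSFPQ, near the 38.4% of all genes for the former. Their median was -0.55 and -0.60 in the siSFPQ-2 pairings and -0.01 and -0.05 in those of siSFPQ-3, and 9 members were higher with siSFPQ-3 than with siSFPQ-2. The splicing, polyadenylation and exosome medians lay between -0.18 and 0.01 in each of the 4 pairings.

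Of 32 markers of other cell types 11 were expressed enough to test, of which 6 were higher after siSFPQ and 3 after siNONO; their part in the results was not tested. The summed level of T-cell markers was 5.67 to 18 CPM after siSFPQ and 0.101 to 0.733 CPM after siNONO, most of it LCK: CD3D had 6 reads, CD3E 2 and CD2 0 over the siSFPQ libraries. The liver and intestine markers summed to 22.6 to 41.9 CPM against 0.834 to 3.84 CPM, mostly KRT20 and VIL1, the latter named after its values were seen, with CDX2 at 0 reads. Squamous and alveolar markers summed to 4.09 to 14.6 CPM against 49.5 to 61.3 CPM, carried by TP63, with SFTPB, SFTPC and SCGB1A1 at 0. TP63 alone was at 2.92, 4.61 and 13.3 CPM after siSFPQ and 48.6, 50.4 and 59.4 CPM after siNONO. Fibroblast markers summed to 16.5 to 27.8 CPM against 26.8 to 54.4 CPM, with DCN at 0, but the members divided. COL1A1, at 15.4 against 24.7 CPM, and COL1A2, at 1.56 against 12.9 CPM, made up most of the sum. COL3A1, at 2.65 against 0.0822 CPM, and PDGFRA, at 4.29 against 0.427 CPM, went the other way. Endothelial markers summed to 1.14 to 2.42 CPM after siSFPQ and 0.101 to 0.521 CPM after siNONO, and myeloid markers to 1.30 to 2.60 CPM and 0.0969 to 0.642 CPM, low in both groups but without overlap.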

How the data were processed

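Gene counts deposited by the authors, one table per library, hold whole reads per gene for 60605 genes. Per the submitters' processing notes, reads were handled with cutadapt 4.2, STAR 2.7.5a, featureCounts of Subread 2.0.3 and hg38; no source used here gives the annotation release, the strand setting or the treatment of multiply mapped reads, so values of overlapping, antisense and near-identical genes are uncertain. Genes were kept by edgeR's filterByExpr over the 12 libraries, scaled by TMM and tested with the quasi-likelihood method (edgeR 4.0.16, R 4.3.3), with Benjamini-Hochberg adjustment over all 15075 genes and a threshold of 0.05. A gene with very few reads in either group passes this filter only through the other, so its direction is fixed. Besides the genes marked above, this holds for IFI27, NR4A2, HRK, SLC2A3, MIR181A1HG, TENM4, DCLK1 and AADACP1. List counts and medians include such genes. The pipeline was tested on simulated data. Single library measures used exact permutation tests. Read ratios carry exact binomial 95% intervals and a limit of 3 reads for a count of 0, for counting error only. Genes were named by rule: the family and NEAT1, the 12 largest differences in each direction among genes called in every siRNA pairing with at least 5 CPM in a group, up to 3 called members of each list per direction, noncoding microRNA hosts at that level, and the 3 most different genes over 300 kb per direction; any other gene was picked after its values were seen. The lists and the comparison were chosen with earlier results of these data known. RefSeq sequences were matched by symbol. Alternatives were RLE and upper quartile scaling, no low-count filter, DESeq2 1.42.0, a replicate block, all 24 libraries, single siRNAs and each library left out. Some genes that the naming rule selects are not reported here.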

Additional observations from a re-analysis of the deposited data

Results flagged for a closer look

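One siSFPQ-2 library, replicate 2, was shallower than the other 5 siSFPQ libraries, with 4243196 assigned reads against 7899220 to 9747514. The same library stood apart for EGFL6, at 1.97 CPM where the other siSFPQ libraries had 0.126 to 0.729 CPM. LRRN3 was at 0.101 CPM in siNONO-4 replicate 3 and at 0 in the other 5 siNONO libraries, and AADACP1 was at 0.209 CPM in siNONO-3 replicate 2 and at 0 in the others, which is a single library with reads in each case. Among 62 groups of values examined this way, chance gives about 1 in 20.

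The siRNAs against one target went in opposite directions for some genes. When each siSFPQ siRNA was set against both siNONO siRNAs, 92 genes were called higher with one and lower with the other, and their difference between siSFPQ-2 and siSFPQ-3 was itself called, BRCA2 among them, a gene chosen after its values were seen. When each siNONO siRNA was set against both siSFPQ siRNAs, 60 genes were. Whether a gene reflects the target or a single siRNA was not tested for these.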

How the results depend on the processing

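The count of 11564 called genes held within 1.5 times under each alternative run, and 11551 to 11759 were called with one library left out. Shared calls of the same direction numbered 10944 with DESeq2, 11425 with all 24 libraries and 11551 with the replicate block. Higher and lower calls were 5842 and 5700 with RLE scaling, 5537 and 6030 with upper quartile scaling, and 7385 and 6670 without the low-count filter. In that last run more genes were tested, and the genes at least 2-fold higher after siSFPQ numbered 4633. The difference of siNONO-3 from siNONO-4 was called in 2350 genes with the replicate block and in 740 to 1759 with a library left out. Labels number the replicates alike. Deviations correlated over 0.1 in 12 of 18 same-numbered pairs and in 4 of 36 others. All same-numbered pairs of siNONO-3 with siNONO-4 and of siSFPQ-2 with either NONO siRNA were over 0.1. Replicate 3 of siSFPQ-3 was over 0.1 with replicate 3 of each other siRNA, at 0.31, 0.12 and 0.14. Its replicates 1 and 2 were under 0.1 with their own numbers. The 4 other pairs each joined replicate 1 or 2 of siSFPQ-3 to number 2 or 1 of another siRNA. Whether these numbers were exchanged was not tested, and the block used them as labelled. The block gave 5910 higher and 5967 lower calls, and 10 of 12 libraries lay closest to their own number. Single siRNAs moved list medians. With siSFPQ-2 only, the S-phase median was -1.11, cholesterol 0.71 and respiratory chain -0.53. With siSFPQ-3 only, the S-phase median was -0.39, interferon 0.60 and the excess of genes over 300 kb -0.80. With siNONO-3 only, mitochondrial ribosomal was -0.84. With siNONO-4 only, it was -0.64, interferon 0.36, cholesterol 0.81, matrix 1.18, circadian 0.44 and the long-gene excess -0.80. Without the filter the mesenchymal, circadian and long-gene values were 1.18, 0.40 and -0.56, and with DESeq2 the first of these were 1.21 and 0.43. Leaving out a library gave 0.42 to 0.53 for circadian and -0.77 to -0.67 for long genes, whose excess was -0.81 in protein-coding genes and 0.16 when classes were cut by exonic length in place of span. Of 5952 values for 259 named genes 5868 were the same, 73 lost the call, 8 gained it and 3 changed sign: MCM2 at -0.26 with siSFPQ-2 only, MRPS30 at -0.000403 with siNONO-3 only and MIR924HG at 0.081 with siSFPQ-3 only. The cause of these changes was not tested. The shallowest library limits genes with few reads, and siRNA effects shared by both siRNAs of a target cannot be told apart from its loss.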
